A study of Danio rerio with 4 samples.

Results

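The genes described here are those of the germ plasm and of the piRNA pathway in the zebrafish testis. They were chosen by name, as the Ensembl rows with the symbols piwil1, piwil2, ddx4, dazl, tdrd1, tdrd9, mael, asz1, henmt1 and dnd1 in any letter case. Of these 10 symbols 9 matched exactly 1 row each, out of 49610 identifiers, of which 35066 were Ensembl genes and 26996 of those carried a symbol. The symbol mael was not matched, and that gene is not analysed here. FPKM is a count of sequenced fragments divided by the length of the transcript and the size of the library. The lowest mean over the 4 libraries was 20.7 FPKM (henmt1), above the minimum of 1 FPKM used for comparisons, and each gene had values of its own, not shared with another identifier.

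RNA came from the testes of wild-type AB zebrafish, 5 months old and male per the labels, although the text on the study's design calls the fish female. The groups were fish exposed to dibutyl phthalate (DBP), fish exposed to its branched isomer diisobutyl phthalate (DiBP), fish exposed to both (DBP+DiBP), and an unexposed control, with exposure lasting 30 days. DBP and DiBP are plasticizers that differ in the shape of the butyl chains, linear in DBP and branched in DiBP. Each group was 1 library, the labels give no doses, and no pooling of fish is stated, so every ratio below describes these libraries and has no replicate check and no p-value. Sequence tables for these genes were not used here.

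Germ plasm is the cytoplasm that marks future germ cells in the zebrafish egg and early embryo, and in later germ cells related RNA and protein granules lie around the nucleus and against mitochondria. In these granules Piwi proteins, loaded with short piRNAs, cut transposon transcripts, and tudor-domain proteins and RNA helicases hold and feed the Piwi complexes. Many of these genes are needed to keep or differentiate germ cells, and in the testis their RNA is found mainly in spermatogonia and spermatocytes.

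All 9 genes were expressed in each library, with the same gene at the top and the same order for the first 4. The RNA helicase gene ddx4 (vasa) was the highest in every library, followed by the RNA-binding translation factor dazl, the Piwi gene piwil1 and the tudor scaffold gene tdrd1. At the low end were henmt1, the methyltransferase that protects the ends of piRNAs, and, in all but DBP+DiBP, dnd1, which encodes an RNA-binding protein that guards germ cell fate. The 9 genes spanned 19.2 to 251 FPKM in DBP, 24.6 to 262 FPKM in DiBP, 12.4 to 167 FPKM in DBP+DiBP and 24.4 to 352 FPKM in control. Without replicates, no spread is available to say which neighbours in this order differ. In DBP+DiBP, ddx4 exceeded 97.5% of the 15843 Ensembl genes compared and henmt1 exceeded 68.8%, against 98.8% for ddx4 and 81.5% for henmt1 in control.

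**Figure D1:**
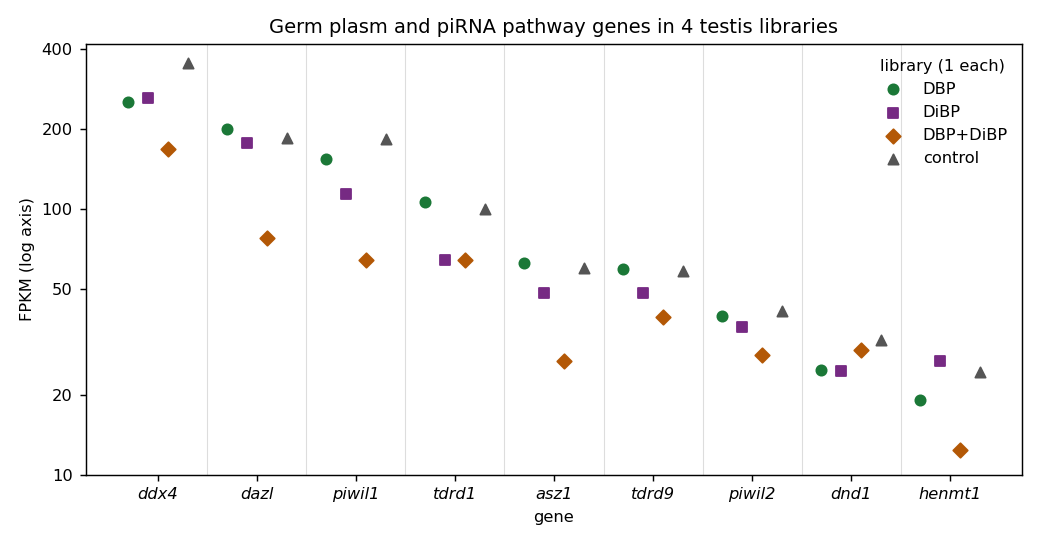
Level of each of the 9 genes in FPKM (log axis) in the DBP, DiBP, DBP+DiBP and control libraries, 1 point per library, genes ordered by their level in control. The DBP+DiBP point is the lowest of the 4 for 7 genes, is within 0.1 FPKM of the DiBP point for tdrd1, and lies above both single exposures for dnd1.

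The DBP+DiBP library held the lowest level of 7 of the 9 genes and the lowest sum. Summed over the 9 genes the level was 916 FPKM in DBP, 800 FPKM in DiBP, 510 FPKM in DBP+DiBP and 1035 FPKM in control, which is 88.5%, 77.3% and 49.2% of control for the 3 exposed libraries. As a share of all FPKM in the library, the genes made up 0.159% in DBP, 0.146% in DiBP, 0.0842% after joint exposure and 0.171% in control. All 9 genes were below control in DBP+DiBP, where 57.2% of all features compared were below it. In DiBP 8 of 9 were below control (50.5% of features), and in DBP 5 of 9 (45.5% of features). With totals made equal, 7 of 9 were below control in DiBP (43.0% of features). In DBP 7 of 9 were below control with median-ratio scaling (51.0% of features) or upper-quartile scaling (50.2%). In bulk tissue, fewer germ cells, less of each RNA per germ cell and more RNA from other cells or tissue (described below) cannot be told apart.

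The 2 Piwi genes encode the proteins that bind piRNAs and slice their targets. For piwil1 (ziwi) the level was 154 FPKM in DBP, 114 FPKM in DiBP and 64.4 FPKM in DBP+DiBP, against 183 FPKM in control. All 3 exposed libraries were below control for piwil1, with DBP+DiBP the lowest, and its ratio in DBP+DiBP against control was -1.49 on the log2 scale, taken on FPKM + 1, the lowest among the 9 genes. For piwil2 (zili) the values were closer together, at 39.7 FPKM in DBP, 35.9 FPKM in DiBP and 28.3 FPKM in DBP+DiBP, against 41.3 FPKM in control. Its log2 ratio in DBP+DiBP was -0.53, under 2-fold. The level of piwil1 was 3.87 times that of piwil2 in DBP, 3.18 times it in DiBP and 2.28 times it in DBP+DiBP, against 4.43 times in control. This ratio of 2 genes within a library does not depend on how libraries are scaled.

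The partners of the Piwi proteins differed among themselves. The scaffold gene tdrd1, whose tudor domains bind methylated Piwi proteins, had 106 FPKM in DBP, 63.9 FPKM in DiBP and 64.0 FPKM in DBP+DiBP, against 99.4 FPKM in control. Both libraries from fish given DiBP therefore lay at 64.3% to 64.4% of control, and DBP lay at 106%. The tudor-domain helicase gene tdrd9 had 59.5 FPKM in DBP, 48.0 FPKM in DiBP and 39.2 FPKM in DBP+DiBP, against 58.5 FPKM in control. Its ratio in DBP+DiBP was -0.56 on the log2 scale, close to those of piwil2 and tdrd1 (-0.63).

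The gene asz1 (gasz), which ties the granules to the mitochondrial surface, had 62.8 FPKM in DBP, 48.1 FPKM in DiBP and 26.9 FPKM in DBP+DiBP, against 60.1 FPKM in control. It passed 2-fold in DBP+DiBP, with a log2 ratio of -1.13, and was the eighth of the 9 genes by level in DBP+DiBP, against the fifth in control. For henmt1 the values were 19.2 FPKM in DBP, 26.7 FPKM in DiBP and 12.4 FPKM in DBP+DiBP, against 24.4 FPKM in control. It was the single gene above control in DiBP (log2 ratio 0.13), and its ratio of -0.93 in DBP+DiBP was the nearest to 2-fold among those that did not reach it.

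The remaining 3 genes, ddx4, dazl and dnd1, are classic germ plasm genes, and they did not share a pattern. For ddx4, whose helicase works in both the germ plasm and the piRNA pathway, the levels were 251 FPKM in DBP, 262 FPKM in DiBP and 167 FPKM in DBP+DiBP, against 352 FPKM in control. All 3 exposed libraries were below control for ddx4, with log2 ratios of -0.49, -0.43 and -1.07, the last just past 2-fold. The translation factor gene dazl had 199 FPKM in DBP, 177 FPKM in DiBP and 77.6 FPKM in DBP+DiBP, against 184 FPKM in control. Its single-exposure ratios were near 0 (0.11 in DBP and -0.06 in DiBP, the latter turning positive with library totals made equal), and its DBP+DiBP ratio was -1.24. The gene dnd1 had 24.7 FPKM in DBP, 24.6 FPKM in DiBP and 29.6 FPKM in DBP+DiBP, against 32.2 FPKM in control. Of the 9 genes it was the one with its DBP+DiBP level above both single exposures, at 91.7% of control.

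**Figure D2:**
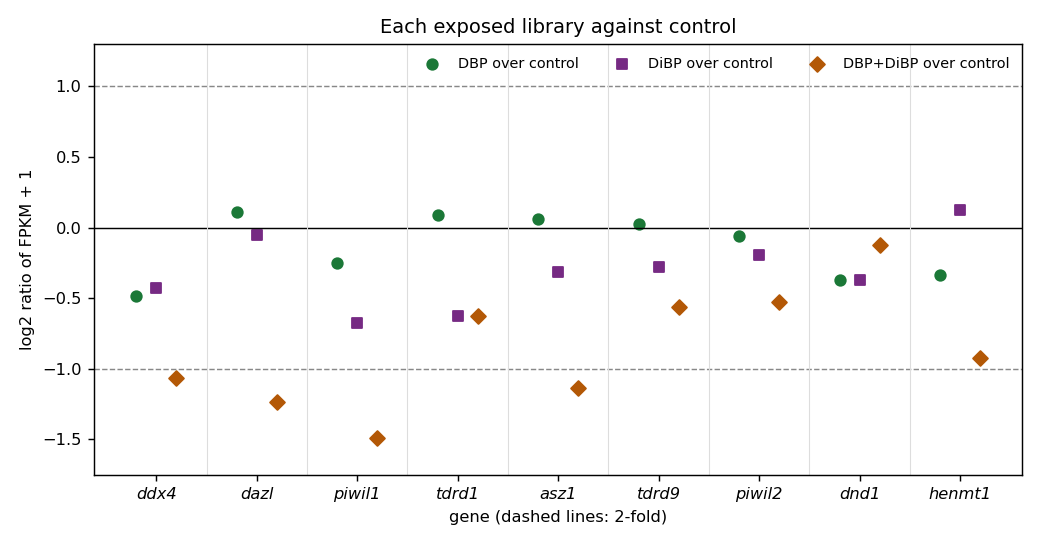
Log2 ratio of FPKM + 1 of DBP, DiBP and DBP+DiBP to control for each gene, 1 point per exposed library, with dashed lines at 2-fold. In DBP+DiBP 4 genes (ddx4, dazl, piwil1 and asz1) lie below the lower line, and no point of DBP or DiBP does.

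In DBP against control none of the 9 genes was 2-fold higher or lower, while 6.68% of the 23405 features compared were 2-fold higher and 4.5% lower. Among Ensembl genes with a mean of at least 10 FPKM the shares were 3.22% higher and 3.29% lower. For 9 genes, a count of none is near these shares. The median log2 ratio of the 9 genes was -0.06, against 0.05 over all features. The ratios ran from -0.49 (ddx4) to 0.11 (dazl). Those of tdrd9 (0.02) and asz1 (0.06) turned negative when libraries were scaled by median ratios or by their upper quartile.

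In DiBP against control the 9 genes were again all under 2-fold, where 4.6% of all features were 2-fold higher and 3.86% lower. Among Ensembl genes with a mean of at least 10 FPKM the shares were 3.46% higher and 2.84% lower, so this count too is near background. The median log2 ratio was -0.32 for the 9 genes and -0.01 over all features. The lowest ratios were those of piwil1 (-0.67) and tdrd1 (-0.63). At the other end were henmt1 (0.13) and dazl (-0.06).

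In DBP+DiBP against control 4 of the 9 genes were 2-fold lower and none was higher, where 6.42% of all features were lower and 9.57% higher. The median log2 ratio was -0.93 for the 9 genes and -0.11 over all features. Among the 5987 Ensembl genes with a mean of at least 10 FPKM, a level that all 9 genes reach, 5.9% were 2-fold lower, 7.57% were higher and the median was -0.23. The ratio of piwil1 was lower than that of all but 2.01% of features, while that of dnd1 (-0.12) was near the middle, with 49.3% of features below it. Scaling by median ratios put ddx4 at -0.97, just under 2-fold, which left 3 of 9 genes lower (5.46% of all features under that scaling).

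The isomers were set side by side, but with no doses in the labels a match in dose cannot be judged. In DiBP against DBP none of the 9 genes passed 2-fold, against a background of 2.65% higher and 4.32% lower. Without scaling, 7 of 9 lay below DBP, as did 54.4% of all features. Under each of the 3 other scalings 6 of 9 did. The shares of features were then 49.0% with totals made equal, 46.7% by median ratios and 51.7% by upper quartiles. The median log2 ratio of DiBP to DBP was -0.17, against -0.04 over all features. The ratio was lowest for tdrd1 (-0.72) and highest for henmt1 (0.46), which were the 2 genes that set these libraries furthest apart. For dnd1 it was -0.01, with a sign that changed under 3 other scalings.

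Joint exposure was also set against each single exposure. Against DBP, 3 of 9 genes were 2-fold lower in DBP+DiBP and none higher (background 11.3% lower, 10.2% higher), with a median of -0.59 against -0.18 over all features. These were dazl (-1.35), piwil1 (-1.24) and asz1 (-1.19). Against DiBP, 2 of 9 were 2-fold lower and none higher (background 8.19% lower, 10.5% higher), with a median of -0.64 against -0.13 over all features. These were dazl (-1.18) and henmt1 (-1.05), and henmt1 dropped under 2-fold with median-ratio or upper-quartile scaling or a pseudocount of 5. The gene tdrd1 had a DBP+DiBP to DiBP ratio of 0.00, and dnd1 was higher in DBP+DiBP than in DBP or in DiBP (0.25 in both).

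For each gene the log2 ratios of the single exposures were added and set against the ratio seen after joint exposure. Before any scaling, the joint ratio minus that sum was below 0 for 8 of 9 genes, with a median of -0.31, beside -0.16 and 56.4% of features below 0 over all features. That median of the 9 genes was -0.49 with totals made equal, -0.14 by median ratios and -0.17 by upper quartiles. The median over all features was not recomputed under these scalings, so -0.16 is no background for them. The count of 8 of 9 also depends on scaling. By median ratios tdrd1 had -0.53 in DBP+DiBP, beside 0.0045 in DBP and -0.62 in DiBP, which puts its difference above 0. Without scaling, the difference was -1.29 for dazl, -0.88 for asz1, -0.72 for henmt1 and -0.56 for piwil1. Also without scaling, the joint level of tdrd1 (-0.09) and ddx4 (-0.15) was close to what the single exposures add up to, and for dnd1 the difference was 0.62. With totals made equal the joint level was less close for both. There ddx4 had -1.08 in DBP+DiBP, beside -0.44 in DBP and -0.31 in DiBP, and tdrd1 had -0.64, beside 0.14 and -0.51. Each of the 4 libraries enters these differences with the same weight, and there is no error term with 1 library per group.

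**Figure D3:**
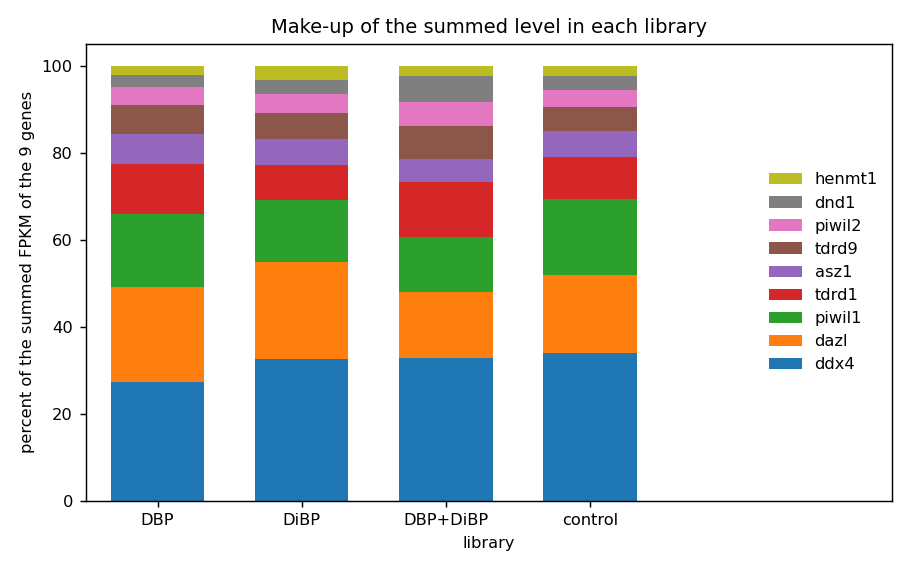
Share of each gene in the summed FPKM of the 9 genes, as percent, for the DBP, DiBP, DBP+DiBP and control libraries, with 1 stacked bar per library. The share of dnd1 is 5.80% in DBP+DiBP and 3.11% in control, while that of piwil1 is 12.6% in DBP+DiBP and 17.6% in control.

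Within a library, the make-up of the group shifted in ways that library scaling cannot change. The level of dnd1 as a fraction of that of ddx4 was 0.0986 in DBP and 0.0941 in DiBP but 0.177 in DBP+DiBP, against 0.0915 in control. As a fraction of dazl it was 0.124 in DBP and 0.139 in DiBP but 0.381 in DBP+DiBP, against 0.175 in control. In DBP+DiBP dnd1 thus stood higher relative to both than in the other 3 libraries. The level of dazl relative to ddx4 was 0.794 in DBP and 0.678 in DiBP but 0.463 in DBP+DiBP, against 0.524 in control, with both single exposures above control and joint exposure below it. For tdrd1 relative to ddx4 the value was 0.421 in DBP, and it was 0.244 in DiBP and 0.382 in DBP+DiBP, against 0.282 in control, so that DiBP was the lowest there.

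Other genes of the piRNA pathway were followed as a list of 24 symbols, of which 17 matched a row and all 17 were compared. In DBP none passed 2-fold (6.68% of all features higher, 4.5% lower), and in DiBP none did (4.6% higher, 3.86% lower). The medians were 0.09 in DBP and -0.03 in DiBP. In DBP+DiBP the median was -0.53 (-0.11 over all features), and 15 of 17 were below control (57.2% of features). At 2-fold 2 of 17 were lower (6.42% of features) and 1 higher (9.57%), not far from those shares for a short list. The lower ones were the helicase gene ddx43 (23.7 FPKM in DBP+DiBP, 59.0 FPKM in control, log2 ratio -1.28) and tdrkh, a tudor protein of the mitochondrial surface (25.1 FPKM in DBP+DiBP, 51.2 FPKM in control, just past 2-fold). The higher one was SND1, a tudor nuclease gene active in many tissues, with 15.3 FPKM in DBP+DiBP and 4.86 FPKM in control (1.47).

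The most abundant genes of that list were gtsf1, a cofactor of Piwi slicing, tdrd7a, exd1 and pld6, the mitochondrial enzyme that helps form piRNAs. For gtsf1 the level was 323 FPKM in DBP, 353 FPKM in DiBP and 198 FPKM in DBP+DiBP, against 310.0 FPKM in control. The level of tdrd7a was 260.1 FPKM in DBP, 324 FPKM in DiBP and 189 FPKM in DBP+DiBP, against 246 FPKM in control. Both had DiBP as the highest library and DBP+DiBP as the lowest. The DBP+DiBP ratios were -0.97 for exd1 and -0.53 for pld6. MYBL1 encodes the transcription factor that switches on piRNA genes in mouse spermatocytes, and it had 6.05 FPKM in DBP+DiBP and 10.5 FPKM in control (-0.71).

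Other germ plasm genes were mostly weakly expressed in these testes, with CELF1 as the exception. Of 11 symbols 1 had no match, 9 features were found and 6 averaged at least 1 FPKM. In DBP+DiBP the median of these 6 was 0.33, with 3 above control and 3 below. Those above were hook2 (1.35) and 2 genes with the symbol RBPMS2 (1.25 and 0.81). Below control, as the 9 genes were, lay CELF1 (-0.52), buc (-0.43) and rgs14a (-0.14). At 2-fold 2 of the 6 were higher (9.57% of all features) and none lower (6.42%). NANOS3, a germ plasm RNA-binding gene, was listed at 0 in all 4 libraries, and buc, the organizer of germ plasm in the oocyte, had 3.17 FPKM in DBP, 4.13 FPKM in DiBP and 2.67 FPKM in DBP+DiBP, against 3.96 FPKM in control. In DBP 1 of the 6 was higher (6.68%) and none lower (4.5%), and in DiBP 1 was higher (4.6%) and 1 lower (3.86%). A single gene of this list was 2-fold higher in all 3 exposed libraries. This was hook2, with 6.95 FPKM in DBP, 7.93 FPKM in DiBP and 4.75 FPKM in DBP+DiBP, against 1.26 FPKM in control, but its values were shared with another identifier of the same symbol. The RNA-binding gene CELF1 had 29.1 FPKM in DBP, 26.3 FPKM in DiBP and 19.3 FPKM in DBP+DiBP, against 28.0 FPKM in control, with a DBP+DiBP ratio of -0.52. A pair of genes carried the symbol RBPMS2, and 1 of them was higher in DBP+DiBP (1.25) and the other lower in DiBP (-1.10), all at or below 6.21 FPKM.

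The miRNA and siRNA pathway, which uses Argonaute proteins in place of Piwi proteins, served as a comparison. Its 11 genes summed to 44.9 FPKM in DBP, 40.7 FPKM in DiBP and 38.3 FPKM in DBP+DiBP, against 46.2 FPKM in control. Of the 7 compared, none passed 2-fold in DBP (6.68% of all features higher, 4.5% lower). A single gene was lower in DiBP (3.86% lower, 4.6% higher) and in DBP+DiBP (6.42% lower, 9.57% higher). The medians were -0.00, -0.19 and -0.09 for DBP, DiBP and DBP+DiBP. That gene was DICER1, the nuclease that makes miRNAs, with 5.99 FPKM in DBP, 0.495 FPKM in DiBP and 0.285 FPKM in DBP+DiBP, against 6.01 FPKM in control. The 2 libraries from fish given DiBP were low for DICER1 and the other 2 alike. None of the other 6 compared genes passed 2-fold in any exposed library, and AGO4, its most abundant Argonaute gene, lay between 7.11 and 10.4 FPKM in the 4 libraries.

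**Figure D4:**
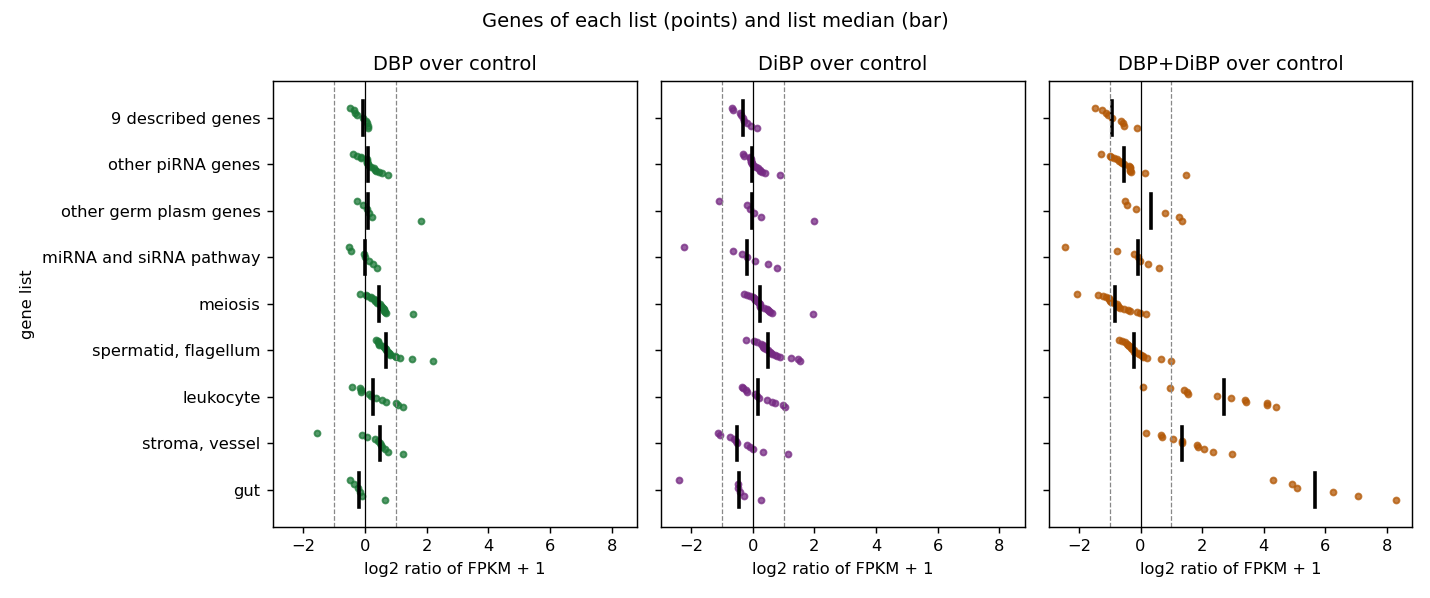
Log2 ratio of FPKM + 1 of each exposed library to control for the genes of 9 lists (points, 1 per gene with a mean of at least 1 FPKM) with the list median as a bar and dashed lines at 2-fold, in 3 panels for DBP, DiBP and DBP+DiBP. The 9 described genes have a median of -0.93 in DBP+DiBP, beside -0.82 for meiosis and 5.66 for gut genes.

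Germ cell genes of later stages were set beside the 9 genes. Meiosis genes had medians of 0.44 in DBP and 0.23 in DiBP but -0.82 in DBP+DiBP. In DBP+DiBP 6 of 20 were 2-fold lower (6.42% of all features) and none higher (9.57%). In DBP 1 was higher (6.68%) and none lower (4.5%), and in DiBP 1 was higher (4.6%) and none lower (3.86%). The most abundant meiosis gene SYCP3, a part of the axis of paired chromosomes, had 518 FPKM in DBP, 532 FPKM in DiBP and 156 FPKM in DBP+DiBP, against 342 FPKM in control. Spermatid and flagellum genes had medians of 0.69 in DBP and 0.49 in DiBP but -0.20 in DBP+DiBP. At 2-fold 4 of 19 were higher in DBP (6.68% of all features), 3 in DiBP (4.6%) and 1 in DBP+DiBP (9.57%). None was lower in DBP (4.5%), in DiBP (3.86%) or in DBP+DiBP (6.42%). In the single exposures the median of the 9 genes (-0.06 and -0.32) therefore lay below those of both later-stage lists, and in DBP+DiBP it lay near that of meiosis and below that of spermatid genes. Among spermatogonia genes 3 of 11 averaged at least 1 FPKM. DMRT1, which Sertoli cells also express, was the one above 10 FPKM among them, with 112 FPKM in DBP, 106 FPKM in DiBP and 54.4 FPKM in DBP+DiBP, against 105 FPKM in control. In DBP+DiBP 1 of these 3 genes was 2-fold higher (9.57% of all features) and none lower (6.42%), with a median of -0.51. The higher one was etv5b, with 7.31 FPKM in DBP+DiBP and 1.29 FPKM in control (log2 ratio 1.86).

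Markers of other cell types were set beside the 9 genes as well, and the lists differed in direction in DBP+DiBP. Of 6 gut genes compared, 6 were 2-fold higher in DBP+DiBP, where 9.57% of all features were 2-fold higher. The 8 matched gut genes summed to 16.7 FPKM in DBP, 6.34 FPKM in DiBP and 3120 FPKM in DBP+DiBP, against 15.3 FPKM in control. Leukocyte genes were 2-fold higher in DBP+DiBP in 10 of 12 (9.57% of all features). The 13 matched genes summed to 241 FPKM in DBP, 268 FPKM in DiBP and 709 FPKM in DBP+DiBP, against 203 FPKM in control. Stroma and vessel genes were 2-fold higher in DBP+DiBP in 8 of 11 (9.57% of all features). The 16 matched genes summed to 670.4 FPKM in DBP, 302 FPKM in DiBP and 1672 FPKM in DBP+DiBP, against 448 FPKM in control. None of the matched genes of these 3 lists was at 0 in any library. Among somatic testis lists, Sertoli genes summed to 555 FPKM in DBP+DiBP and 271 FPKM in control (263 FPKM in DBP, 259 FPKM in DiBP). Leydig genes summed to 439 FPKM in DBP+DiBP and 1181 FPKM in DiBP, against 2791 FPKM in DBP and 2320 FPKM in control. Between DBP+DiBP and control, gsdf carried the Sertoli difference, while insl3 made up most, but not all, of the Leydig difference. Without gsdf, the remaining Sertoli genes summed to 215.5 FPKM in DBP+DiBP and 216 FPKM in control. Without the Leydig hormone gene insl3, the remaining Leydig genes summed to 145 FPKM in DBP+DiBP and 248 FPKM in control. That sum was 138 FPKM in DiBP, below DBP+DiBP, and 335 FPKM in DBP. In DBP+DiBP 1 of 8 Sertoli genes compared was 2-fold higher (gsdf, 9.57% of all features) and 1 lower (amh, 6.42%), near those shares. Of 8 Leydig genes compared 3 were 2-fold lower (6.42% of all features) and none higher (9.57%), and 7 were below control (57.2% of all features). The part of these cell types in the lower levels of the 9 genes was not tested.

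Ovary was checked too, since ddx4, dazl, piwil1 and their partners are also active in oocytes. The oocyte and ovary genes summed to 236 FPKM in DBP, 230.4 FPKM in DiBP and 160.3 FPKM in DBP+DiBP, against 344 FPKM in control. Of 10 compared, 3 were 2-fold lower in DBP+DiBP (6.42% of all features) and none higher (9.57%). In DiBP 1 was lower (3.86%) and none higher (4.6%), and in DBP 1 was lower (4.5%) and 2 higher (6.68%). Most of the sum was org, an oogenesis-related gene, with 180.3 FPKM in DBP, 184 FPKM in DiBP and 129.9 FPKM in DBP+DiBP, against 294 FPKM in control. Without org the sums were 55.7 FPKM in DBP, 46.1 FPKM in DiBP and 30.5 FPKM in DBP+DiBP, against 50.7 FPKM in control. DBP was then above control. The 3 lower in DBP+DiBP were org, the egg coat gene zp3d.2 (10.4 FPKM in DBP+DiBP, 22.1 FPKM in control) and ZAR1, an oocyte factor that was 2-fold lower in all 3 exposed libraries (2.11 FPKM in DBP, 2.22 FPKM in DiBP and 2.29 FPKM in DBP+DiBP, against 6.07 FPKM in control). Of other markers near the floor, zp3b was listed at 0 in DBP and in DiBP and had 0.325 FPKM in DBP+DiBP and 1.07 FPKM in control, while GDF9 had 2.72 FPKM in DBP, 0.548 FPKM in DiBP and 0.801 FPKM in DBP+DiBP, against 0.795 FPKM in control.

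The genes outside the list whose 3 ratios to control were most like the median ratios of the 9 genes were sought among 4887 annotated genes with a mean of at least 10 FPKM. The measure was the root mean square difference over the 3 log2 ratios. The 8 nearest were ANKRD10, FRA10AC1, NPRL2, WDHD1, SMARCD2, SASS6, mrps21 and FBXO22, with differences of 0.03 to 0.06. ANKRD10 had 24.0 FPKM in DBP, 19.6 FPKM in DiBP and 13.0 FPKM in DBP+DiBP, against 24.9 FPKM in control. Among the 9 genes themselves asz1 was the nearest to the median profile, with a difference of 0.14, and piwil1 (0.40) and dnd1 (0.50) were the farthest.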

How the data were processed

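The authors deposited 1 file per testis library with 1 value per gene, taken as FPKM (fragments per length of transcript and size of library). No header or label names this unit. It was inferred from values that were not whole and from totals that differed between libraries. HISAT2, the counter HTSeq 0.6.1 and the build GRCz10 are named per the submitters' processing notes, and which step made the values is not given in the sources used here. From the spacing of low values, the DBP library was 1.051 times as deep as control, DiBP 1.103 times and DBP+DiBP 1.085 times. Absolute depth is unknown, so no counting intervals are given. FPKM is scaled by gene length, so levels of different genes can be set side by side.

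Identifiers that shared all values (3636) were merged, leaving 42683 features above 0 in some library, of which 23405 with a mean of at least 1 FPKM were compared (15843 of them Ensembl genes). Ratios are differences of log2(FPKM + 1) without further scaling, a scale that understates the folds of low genes, and 2-fold was the threshold. Python 3.11.15, pandas 2.3.3 and numpy 2.4.6 were used, and the counting was tested on simulated data. Assembled loci can hold reads of a named gene and were not assigned to genes.

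The 9 genes and all lists were chosen with earlier results of these data known. Every one of the 9 genes is named, as are pathway genes past 2-fold or of highest mean, and further genes of the lists serve as examples. Lists were matched by symbol in any case, then without the copy letter, then by RefSeq synonym in the GRCz12tu table, from which no coordinates were taken. With 1 library per group no test was made. The alternatives were other pseudocounts (0.1 and 5), scalings, filters and a 1.5-fold threshold.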

Additional observations from a re-analysis of the deposited data

How the results depend on the processing

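Directions and 2-fold calls of the 9 genes were recomputed with pseudocounts of 0.1 and 5 and with libraries scaled by totals, median ratios or upper quartiles. Of 270 recomputed ratios 9 changed sign, all of them under 2-fold, and 4 fell under 2-fold. The median ratio of DBP+DiBP to control was -0.76 with a pseudocount of 5. With totals made equal the median was -0.20 for DiBP against control and -0.77 for DBP+DiBP against DiBP, and by median ratios it was -0.42 for DBP+DiBP against DBP. The median departure from additivity was -0.49 with totals made equal, -0.14 by median ratios and -0.17 by upper quartiles. The count of genes 2-fold lower in DBP+DiBP than in DiBP was 1 of 9 with a pseudocount of 5 (2.38% of all features), by median ratios (6.88%) and by upper quartiles (7.05%). At 1.5-fold 6 of 9 genes were lower in DBP+DiBP than in control (20% of all features), 2 in DiBP than in control (12%), 1 in DiBP than in DBP (12.3%), 6 in DBP+DiBP than in DBP (27.1%) and 5 in DBP+DiBP than in DiBP (23.3%). The share of all features 2-fold lower in DBP+DiBP than in control lay between 1.68% and 12.2% over the settings and filters, one of which (genes of at least 10 FPKM) was chosen after seeing the data. The cause of these shifts was not tested. No paired analysis was possible because each group was 1 library, and no library could be left out without losing its group.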
